A study of Homo sapiens with 6 samples.

Results

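The Sm core of the spliceosomal snRNPs was followed through 8 transcripts of 7 genes: SNRPB, with 2 transcripts, and SNRPD1, SNRPD2, SNRPD3, SNRPE, SNRPF and SNRPG, with 1 each. They were chosen by transcript ID, and all 8 were found among the 203028 transcripts listed for each library. The symbols come from the list of members. Nothing used here pairs the transcript IDs with genes, so other transcripts of these genes were not analysed here and a value below is that of a transcript, not of a whole gene. The samples were HEK293 cells, an established human embryonic kidney line. In the 3 control libraries the cells carried a scrambled shRNA, and in the 3 PRPF39 shRNA libraries an shRNA against PRPF39, a factor associated with the U1 snRNP. Both groups received the shRNA by lentivirus and both were kept under puromycin, and polyadenylated RNA was sequenced.

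Sm proteins are small proteins that share a common fold and close into a ring around the Sm site of the U1, U2, U4 and U5 snRNAs. SmB (or its isoform SmB′) and SmD3 form a pair, as do SmD1 and SmD2, and SmE, SmF and SmG form a trimer. These pieces are loaded onto the snRNA in the cytoplasm with the help of the SMN complex, and the finished ring holds 1 copy of each of the 7 proteins. SmB, SmD1 and SmD3 carry arginine-rich tails that are methylated before assembly. SNRPB gives rise to SmB and SmB′ by alternative splicing, and the SmB protein is known to act on the splicing of its own pre-mRNA.

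The genes are spread over the genome. In GRCh38.p14, RefSeq places SNRPB on chromosome 20 (2461642 to 2470789), SNRPD3 on chromosome 22 (24555650 to 24574971) and SNRPD1 on chromosome 18 (21612314 to 21633520). SNRPD2 lies on chromosome 19 (45687454 to 45692316), SNRPE on chromosome 1 (203861599 to 203871152), SNRPF on chromosome 12 (95858952 to 95866140) and SNRPG on chromosome 2 (70281362 to 70293740). The 150 bases before the RefSeq start are shown for SNRPB, the gene whose 2 transcripts differed in their proportions between groups and for which the RefSeq table holds 1 start, and for SNRPF, the member with the largest fold change. Capitals mark CCGGAAGT (the core of an ETS factor site) and CCAAT (the CCAAT box), both searched on both strands and both chosen after the sequences had been read.
SNRPB, chr20:2470790-2470939, minus strand: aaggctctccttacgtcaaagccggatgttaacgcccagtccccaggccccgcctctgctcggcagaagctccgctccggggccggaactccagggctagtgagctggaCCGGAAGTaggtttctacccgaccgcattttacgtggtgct
SNRPF, chr12:95858802-95858951, plus strand: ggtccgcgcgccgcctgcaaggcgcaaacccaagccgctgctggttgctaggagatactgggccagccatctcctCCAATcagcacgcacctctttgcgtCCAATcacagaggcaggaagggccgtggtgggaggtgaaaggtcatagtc
The SNRPB stretch holds CCGGAAGT once, 41 to 34 bases before the start, and 2.98% of all 35116 RefSeq stretches of this length hold it. The SNRPF stretch holds CCAAT at 75 to 71 and at 50 to 46 bases before the start, and 23.5% of all stretches hold it. Of the 6 Sm genes with a start in the table, SNRPD2 also holds CCAAT in such a stretch. The matches are descriptions of these letters, and no readout here measured the promoters.

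The libraries held 113747941 to 246491084 estimated reads, and the 8 transcripts had 2639 to 70712 reads each in any library. The error of these estimates was not set against the spread between libraries. PRPF39 shRNA replicate 2 was the shallowest. Depletion of PRPF39 was not checked, since its transcripts were not matched to IDs. Whether replicates were separate cultures is not stated in the labels, and the spread behind each p-value may therefore be technical. Levels are given in TPM, which corrects for transcript length and library size, and fold changes and adjusted p-values come from edgeR's quasi-likelihood test on estimated counts with Benjamini-Hochberg adjustment over all 97571 transcripts tested.

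No Sm transcript was called at an adjusted p under 0.05: 0 of 8 were higher and 0 of 8 lower with PRPF39 shRNA, where 0.443% of all tested transcripts were called higher and 0.461% lower. One of the 8, SNRPF, had an unadjusted p under 0.05 in edgeR, as had 16.1% of all tested transcripts. DESeq2 and limma on log2(TPM + 1) each called SNRPF higher and called no other member. Of the transcripts each tested, DESeq2 called 5.0% higher and limma on log2(TPM + 1) called 2.40% higher. Limma-voom called no member, and it called 0.444% of all transcripts higher. The log2 fold changes of the 8 ran from -0.19 to 0.39, with 4 above and 4 below 0. Their median was 0.05, and that of all tested transcripts was -0.02. The median absolute log2 change was 0.18 for the 8 and 0.40 for all tested transcripts. In a separate fit of the 20216 transcripts whose mean reached 5 CPM (counts scaled to library size), it was 0.24 for those transcripts. The 8 averaged 24.4 to 323 CPM, and these medians are not matched for abundance.

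**Figure D1:**
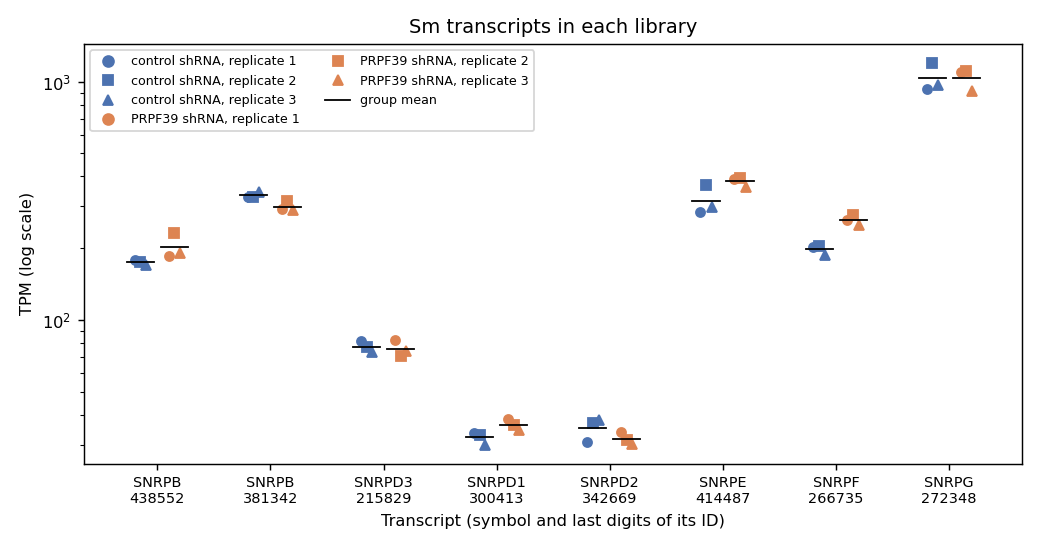
TPM (log axis) of the 8 Sm transcripts in each of the 6 libraries; points are libraries, short lines are group means. SNRPG lies between 909.6 and 1197 TPM and SNRPD1 and SNRPD2 between 30.0 and 38.3, and the groups are apart for SNRPF (186.7 to 204.3 against 249.8 to 276.0 TPM).

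The 2 SNRPB transcripts differed between groups in opposite directions. ENST00000438552, 1008 bases long, stood at 178.6, 175.1 and 169.8 TPM in control replicates 1, 2 and 3 and at 186.1, 232.1 and 191.1 TPM in PRPF39 shRNA replicates 1, 2 and 3. Every PRPF39 shRNA library was above every control, and replicate 2 stood well above the other two. ENST00000381342, 1154 bases long, stood at 329.4, 326.8 and 345.2 TPM in control and at 292.9, 314.8 and 288.4 TPM in PRPF39 shRNA libraries. Here every PRPF39 shRNA library was below every control. Neither difference passed the test of levels. The log2 change of ENST00000438552 was 0.19 ± 0.13 (SE, adjusted p = 0.547, edgeR), with a 95% interval from -0.12 to 0.50. That of ENST00000381342 was -0.19 ± 0.10 (SE, adjusted p = 0.428, edgeR), with an interval from -0.44 to 0.06. On the CPM scale of that test the groups overlapped for both transcripts. Without PRPF39 shRNA replicate 2 the log2 change of ENST00000438552 was 0.05.

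The mean summed level of the pair was close between groups, while its make-up differed. The sum was 508.1, 501.9 and 515.0 TPM in control and 479.0, 546.9 and 479.5 TPM in PRPF39 shRNA replicates 1, 2 and 3. PRPF39 shRNA replicates 1 and 3 were thus below every control, and replicate 2 was above every control. The sum averaged 508 ± 6.58 TPM with control shRNA (SD, n = 3) and 502 ± 39.1 TPM with PRPF39 shRNA (SD, n = 3). Its log2 change of -0.06 ± 0.11 (SE) had a 95% interval from -0.32 to 0.20 and an adjusted p of 0.847 (edgeR). The share of ENST00000438552 in the pair's TPM was 35.2%, 34.9% and 33.0% in control replicates 1, 2 and 3. In PRPF39 shRNA replicates 1, 2 and 3 it was 38.8%, 42.4% and 39.8%. All 3 PRPF39 shRNA libraries thus had a larger share of the shorter transcript than any control. How often the shares of other transcript pairs were apart was not analysed here. Of single transcripts averaging 5 CPM or more, 21.8% were apart upward and 14.3% downward in TPM. The share averaged 34.3% ± 1.19 with control shRNA (SD, n = 3) and 40.4% ± 1.85 with PRPF39 shRNA (SD, n = 3), a difference of 6.04 percentage points (exact two-sided permutation p = 0.1, the smallest that 3 libraries against 3 allow). In other terms, ENST00000381342 exceeded its partner 1.84 to 2.03 times in control and 1.36 to 1.57 times in PRPF39 shRNA libraries. By reads in place of TPM the shares were 32.0% and 37.8%. Leaving out 1 library in turn gave differences of 5.01 to 6.80 percentage points, the smallest without PRPF39 shRNA replicate 2. The 2 transcripts come from 1 gene, and the quantifier splits the reads they share by a model, so the share carries an allocation error that the files do not give. Which of the transcripts encodes SmB and which SmB′ was not analysed here.

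**Figure D2:**
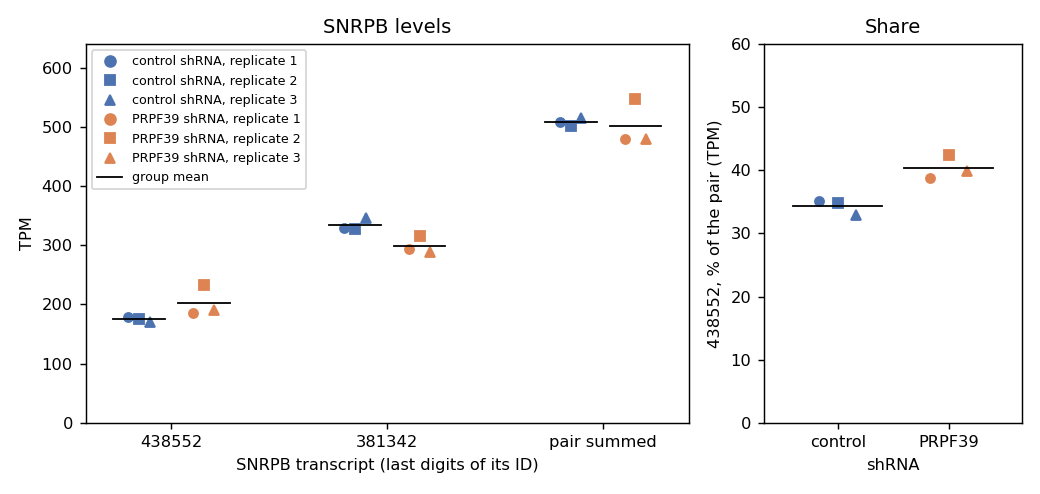
Left, TPM of the 2 SNRPB transcripts and of their sum in each library; right, ENST00000438552 as a percentage of the pair's TPM; points are libraries and short lines group means. The shares were 33.0% to 35.2% in control and 38.8% to 42.4% in PRPF39 shRNA libraries, with overlapping sums.

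SNRPD3, whose SmD3 protein binds SmB, differed little between groups. ENST00000215829 (1763 bases) stood at 81.8, 76.8 and 73.1 TPM in control replicates 1, 2 and 3 and at 82.4, 70.4 and 74.1 TPM in PRPF39 shRNA replicates. The groups overlapped, with the highest and the lowest value both in the PRPF39 shRNA group. The log2 change was -0.06 ± 0.10 (SE, adjusted p = 0.847, edgeR), with a 95% interval from -0.30 to 0.19.

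The SmD1 and SmD2 transcripts were the least abundant members and differed in opposite directions, neither past the threshold. SNRPD1 (ENST00000300413, 4909 bases) stood at 33.6, 32.9 and 30.0 TPM in control and at 38.3, 36.2 and 34.5 TPM in PRPF39 shRNA replicates 1, 2 and 3. On this scale all 3 PRPF39 shRNA libraries were above all controls, but in CPM the groups overlapped. Its log2 change was 0.13 ± 0.11 (SE, adjusted p = 0.612, edgeR), with a 95% interval from -0.12 to 0.39. It ran from 0.09 (without control replicate 1) to 0.23 (without control replicate 2) when a library was left out. SNRPD2 (ENST00000342669, 901 bases) stood at 30.8, 36.9 and 37.9 TPM in control and at 33.7, 31.3 and 30.3 TPM in PRPF39 shRNA libraries. Control replicate 1 lay among the PRPF39 shRNA values, and the other two controls lay above them. The log2 change of SNRPD2 was -0.18 ± 0.16 (SE, adjusted p = 0.661, edgeR), with a 95% interval from -0.57 to 0.21. With 1 library left out in turn, the change of SNRPD2 ran from -0.33 (without control replicate 1) to -0.06 (without control replicate 2).

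SNRPF differed most. ENST00000266735 (1389 bases), the transcript for the SmF protein of the trimer, stood at 203.3, 204.3 and 186.7 TPM in control replicates 1, 2 and 3 and at 263.4, 276.0 and 249.8 TPM in PRPF39 shRNA replicates. The lowest PRPF39 shRNA library was well above the highest control. In CPM as well the groups were apart, for SNRPF alone among the members. Of all transcripts averaging 5 CPM or more, 24.0% were apart upward in CPM and 17.0% downward. The means were 198 ± 9.89 and 263 ± 13.1 TPM (SD, n = 3 each), or 32.8% more with PRPF39 shRNA. In edgeR over all tested transcripts the log2 change was 0.39 ± 0.10 (SE), with a 95% interval from 0.14 to 0.64, and the adjusted p of 0.149 missed the threshold (unadjusted p = 0.0081).

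The call for SNRPF depended on the test. When the test was confined to transcripts averaging 5 CPM or more, where 8.56% were called higher and 9.13% lower, SNRPF was higher with a log2 change of 0.34 ± 0.09 (SE) and an adjusted p of 0.0369 (edgeR), and with the replicate number as a block in that test as well (adjusted p = 0.0419, edgeR, with 7.74% of transcripts called higher). DESeq2 called it (adjusted p = 0.00841), in a test that called 5.0% of transcripts higher, and so did limma on log2(TPM + 1) (adjusted p = 0.0370), which called 2.40% higher. Without control replicate 2 it still passed among transcripts of at least 5 CPM (adjusted p = 0.0412, edgeR), where 4.11% were called higher. It missed there without any 1 of the other 5 libraries, where its adjusted p ran from 0.0625 to 0.109 (edgeR). With the main filter SNRPF missed with RLE (adjusted p = 0.137, edgeR), upper-quartile normalization (adjusted p = 0.0999, edgeR) and effective-length offsets (adjusted p = 0.168, edgeR). It also missed there with the replicate block (adjusted p = 0.211, edgeR), a fit that called 0 transcripts higher and 0 lower. Of the 22 alternatives run, 5 called SNRPF and 17 did not. Its log2 change stayed between 0.29 and 0.49 under all 22.

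The 2 partners of SmF in the trimer did not pass in any test run. SNRPE (ENST00000414487, 942 bases), which encodes SmE, stood at 284.9, 367.4 and 298.3 TPM in control and at 390.1, 395.5 and 362.7 TPM in PRPF39 shRNA replicates 1, 2 and 3. Control replicate 2 was above the lowest PRPF39 shRNA library, and the other two controls were below all 3. Its log2 change was 0.22 ± 0.17 (SE, adjusted p = 0.593, edgeR), with a 95% interval from -0.19 to 0.63. Without control replicate 2 that change was 0.43, and without control replicate 1 it was 0.09.

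SNRPG, which encodes SmG, showed no direction. ENST00000272348 (625 bases) stood at 934, 1197 and 967 TPM in control and at 1103, 1111 and 910 TPM in PRPF39 shRNA replicates 1, 2 and 3. The highest value was a control and the lowest a PRPF39 shRNA library. The log2 change was -0.02 ± 0.18 (SE, adjusted p = 0.968, edgeR), with a 95% interval from -0.45 to 0.40, and its sign turned with upper-quartile normalization, on the TPM scale and without either of 2 libraries.

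**Figure D3:**
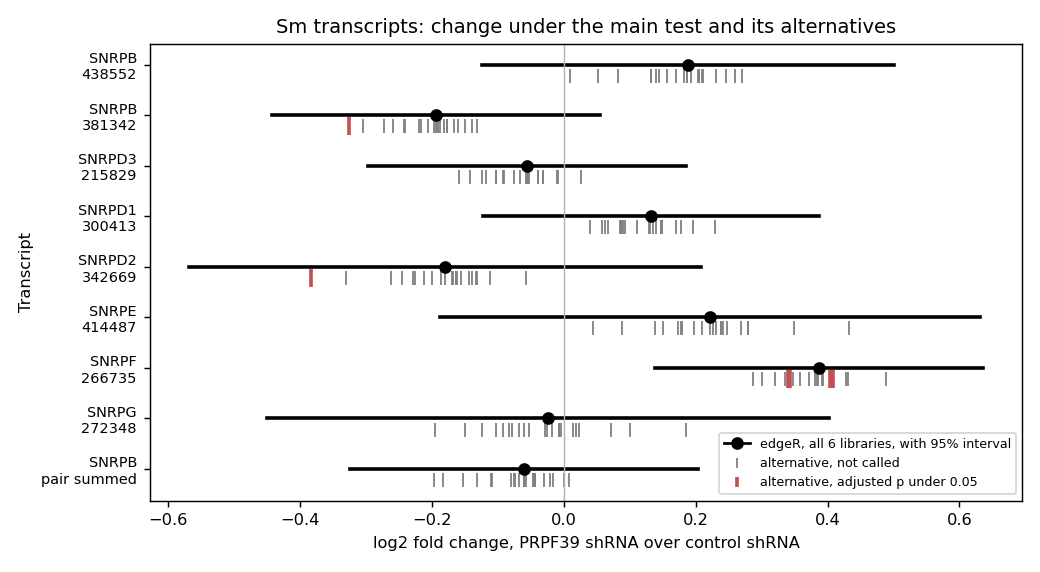
Log2 fold change of each Sm transcript and of the SNRPB pair summed (points, with 95% intervals, edgeR on all 6 libraries) and of each alternative (ticks; red ticks had an adjusted p under 0.05). Of the 9 intervals, that of SNRPF alone, from 0.14 to 0.64, leaves out 0, as do those of 16.1% of all tested transcripts.

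Counted over the 8 transcripts, 3 had all PRPF39 shRNA libraries above all controls in TPM (SNRPF, SNRPD1 and SNRPB ENST00000438552) and 1 had them all below (SNRPB ENST00000381342). Of all transcripts averaging 5 CPM or more, 21.8% were apart upward and 14.3% downward on this scale. In CPM, where 24.0% were apart upward and 17.0% downward, 1 of the 8 was apart upward and 0 downward. Neither count is read as particular to the members. Among transcripts of at least 5 CPM without control replicate 1, SNRPB ENST00000381342 and SNRPD2 were called lower (adjusted p = 0.0429 and 0.0420, edgeR), where 11.0% of transcripts were called lower and 10.2% higher, and SNRPF was not called.

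Although the ring holds 1 copy of each protein, the levels of the transcripts within a library spanned 30.0 to 36.4 times between the highest and the lowest. Over all 6 libraries SNRPG led with 1037 ± 116 TPM (SD), above every other member in every library. SNRPE (350 ± 47.0) and SNRPB ENST00000381342 (316 ± 22.1) followed and exchanged places between libraries, SNRPE being the higher in 4 of 6. SNRPF (231 ± 37.1) exceeded SNRPB ENST00000438552 (189 ± 22.5) in 6 of 6 libraries, with overlapping ranges. SNRPD3 (76.4 ± 4.85) was below these in every library. SNRPD1 (34.2 ± 2.84) and SNRPD2 (33.5 ± 3.28) could not be ordered, SNRPD1 being the higher in 4 of 6. All 8 were among the abundant transcripts: SNRPD2, the lowest, ranked 3553 and SNRPG 128 by mean TPM among the 97571 tested.

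The order rests in part on the quantifier's effective lengths, which are the lengths it divides by. For the 3 trimer transcripts these were far below the annotated length, at 0.442 to 0.475 of it for SNRPG, 0.450 to 0.470 for SNRPE and 0.396 to 0.429 for SNRPF. For the SNRPB transcripts they were above it, at 1.05 to 1.10. With annotated lengths, both SNRPB transcripts (279 and 171 RPKM, computed from annotated length and total reads) were above SNRPE (134) and SNRPF (78.5), and SNRPD2 (27.0) was above SNRPD1 (18.5), each in 6 of 6 libraries. SNRPG (393) led on both scales. The comparison by annotated length was chosen after the data were seen. The RefSeq table also names pseudogenes after 5 of the genes, 20 for SNRPG, 11 for SNRPE, 4 for SNRPF, 2 for SNRPD2 and 1 for SNRPB, and whether their reads entered these values was not tested.

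The proportions of the 7 genes within the summed Sm TPM were compared next, with the SNRPB transcripts added together. The sum was 2077, 2417 and 2108 TPM in control replicates 1, 2 and 3 and 2389, 2467 and 2140 TPM in PRPF39 shRNA replicates, with overlap between the groups. SNRPF made up 9.79%, 8.45% and 8.85% of it in control and 11.0%, 11.2% and 11.7% in PRPF39 shRNA libraries. SNRPE made up 13.7%, 15.2% and 14.1% in control and 16.3%, 16.0% and 16.9% in PRPF39 shRNA libraries, and so, unlike its level, its share did not overlap between groups. The share of SNRPD2 was apart in the other direction, at 1.60% ± 0.17 against 1.36% ± 0.08 (SD, n = 3 each). The differences for SNRPF, SNRPE and SNRPD2 were 2.26, 2.08 and -0.24 percentage points, each with an exact permutation p of 0.1, the smallest possible, and an adjusted p of 0.233 over the 7 genes. Without control replicate 3 the difference for SNRPD2 was -0.14 percentage points. SNRPG held 46.8% ± 2.40 and 44.6% ± 1.87, SNRPB 23.2% ± 2.13 and 21.5% ± 1.30 (SD, n = 3 each), and these overlapped, as did SNRPD1 and SNRPD3. Since the shares add up to 100%, a larger share of 1 gene lowers those of the others. How often shares within other sets of genes were apart was not analysed here. By reads, SNRPE and SNRPF were apart as well, at 1.50 and 2.22 percentage points, and SNRPD2 was not (exact permutation p = 0.2).

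**Figure D4:**
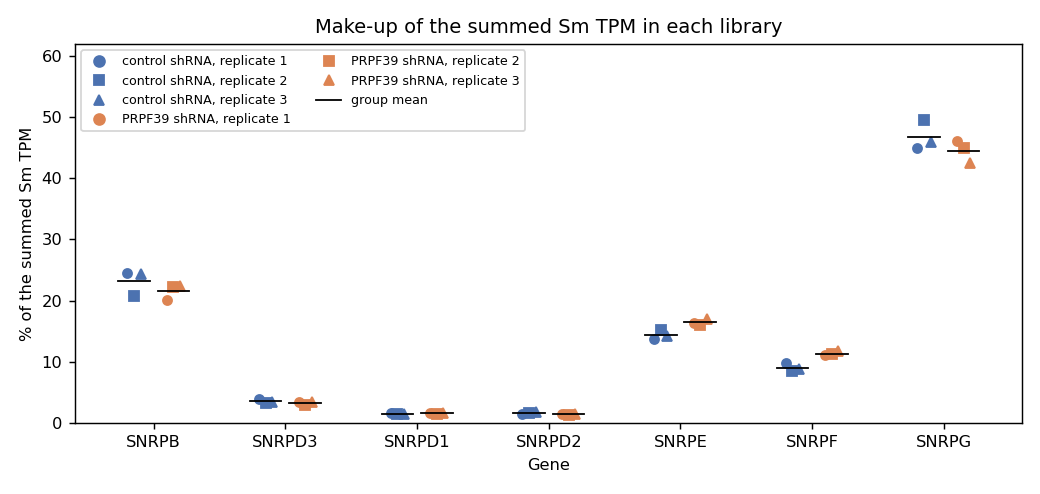
Percentage of the summed Sm TPM held by each of the 7 genes in each library; points are libraries and short lines group means. SNRPF (8.45% to 9.79% against 11.0% to 11.7%) and SNRPE (13.7% to 15.2% against 16.0% to 16.9%) do not overlap between groups, and SNRPG holds 42.5% to 49.5% of the sum.

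The profile of the summed Sm level over the 6 libraries was then set against the other transcripts of at least 5 CPM, by the root mean square difference of log2 CPM after each was centred on its own mean. The nearest outside the members were ENST00000394440, at a difference of 0.028, and ENST00000409334, at 0.029, neither of which is paired with a gene here. The median over the 20216 transcripts was 0.240. The members lay at 0.077 (SNRPD1) to 0.183 (SNRPF) from the summed profile, all nearer than that median. They are part of that sum, so their nearness does not show that they varied together.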

How the data were processed

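Polyadenylated RNA of 6 HEK293 libraries was grouped by sample title. The authors deposited estimated counts (the quantifier's read estimates, unscaled) and TPM values per transcript, with length and effective length, per the file headers. Salmon 0.11.1, STAR 2.7.9a, cutadapt 2.1 and DESeq2 1.32.0 are named, without roles, in the submitters' processing notes, as is build hg38. Options and annotation release are not given in the sources used here. The members and lists were chosen with earlier results of these data known.

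After rounding, counts went into edgeR 4.0.16 under R 4.3.3, with filterByExpr (minimum count 10), TMM and the quasi-likelihood test of group, without covariates. The 97571 transcripts tested held 99.8% to 99.9% of each library's reads. SEs are the log2 change over the square root of F, and 95% intervals use the test's degrees of freedom. For the sum, the SNRPB pair was replaced by 1 row. All 8 members were named whatever their values. Coordinates and sequences are RefSeq's (GRCh38.p14), since the files hold none; 6 of the 7 genes had a start in that table, all but SNRPD1. Shares were compared by exact two-sided permutation over libraries. Alternatives used RLE, upper quartile, other filters, DESeq2 1.42.0, limma 3.58.1 (voom, and log2(TPM + 1) at a mean TPM of at least 1), effective-length offsets, a replicate block and leaving out each library. Replicate numbers were not taken as pairs, since the labels do not say that they mark a shared culture, day or batch. Deviations of same-numbered libraries correlated at 0.07, 0.02 and 0.01. Those values cover all tested transcripts, most of them below 5 CPM, and do not settle whether the libraries were paired. Libraries of 1 group differed by a chi-square per degree of freedom of at least 29.2, so none was a duplicate. Tested on simulated data, edgeR recovered 29% of 2-fold changes when 91805 transcripts were tested, and 74% when 20035 of at least 5 CPM were. In both runs the changed transcripts averaged at least 5 CPM. Changes as small as those of the Sm transcripts were not simulated. Genes of snRNP assembly and the Sm-like (LSM) genes were planned as counts and were not analysed here, since their IDs are not paired with symbols.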

Additional observations from a re-analysis of the deposited data

How the results depend on the processing

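The share of ENST00000438552 in the SNRPB pair and the 7 gene shares kept their direction by reads and with any library left out. For the SNRPB pair, SNRPE, SNRPF and SNRPD2, whose shares did not overlap between groups, leaving out a library could not have turned the direction. The sign-flip test uses the same difference and could not have turned it for any share. With the replicate block (sign-flip test) the exact permutation p of the SNRPB share was 0.25, the smallest that 3 pairs allow. With the main filter, 0 Sm transcripts were called higher and 0 lower whichever library was left out. Over the whole table those fits called only 0 to 14 transcripts higher and 0 to 12 lower, so the 0 is not particular to the members. With a mean of at least 5 CPM, with DESeq2, with limma on log2(TPM + 1), with the replicate block at 5 CPM, and at 5 CPM without control replicate 2, 1 was called higher, SNRPF each time, and at 5 CPM without control replicate 1, 2 were called lower. The sign of the log2 change turned for SNRPG (0.023 with upper quartile, 0.014 on log2 TPM, -0.15 to 0.19 with a library left out, and 0.10 and 0.019 at 5 CPM without control replicate 2 and PRPF39 shRNA replicate 3). Leaving out a library also turned SNRPD3 (-0.12 to 0.026) and the SNRPB sum (-0.15 to 0.0081, and 0.0013 without PRPF39 shRNA replicate 3). The cause was not tested. Over the whole table, 432 transcripts were called higher and 450 lower. A mean of at least 5 CPM gave 1730 and 1845, DESeq2 4877 and 4124, limma on log2 TPM 1096 and 861, the replicate block 0 and 0 (14264 at an unadjusted p under 0.05, edgeR), and that block at 5 CPM 1564 and 1818. Leaving out a library gave 0 to 14 higher and 0 to 12 lower. The 5 CPM fits without a library were added once results were known. Each member's reads numbered at least 2639 in any library.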
